A study of Mus musculus with 12 samples.

Results

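Colorectal tissue taken 2 weeks after azoxymethane (AOM), when 1 course of dextran sulfate sodium (DSS) had been given, was compared with tissue of untreated mice at 0 weeks. The comparison took the 3 arrays titled as AOM/DSS at 2 weeks and the 3 titled as without treatment at 0 weeks, 6 of the 12 arrays in the series. The other arrays, 3 at 1 week (AOM alone) and 3 at 10 weeks (AOM and DSS), entered the shared estimate of spread. All mice were male C57BL/6. The treated mice had received AOM at 10 mg/kg into the peritoneal cavity and, 7 days later, drinking water with 2% DSS for 7 days. The tissue is labelled normal at 0 weeks and colitis at 2 weeks. For the 0-week arrays another label field names AOM/DSS beside 0 week, while their titles give no treatment, and the titles were followed here. The groups differ in AOM, in DSS and in time, which cannot be told apart between these 6 arrays. The labels do not say that each array held the RNA of a separate animal, so a p-value here reflects only how these arrays spread, which may be technical.

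AOM is a carcinogen that the liver activates and that alkylates DNA in colonic epithelium. DSS in drinking water damages the epithelial lining of the colon, so that bacteria reach the tissue and neutrophils and macrophages enter it. AOM followed by DSS is used to produce colitis-associated tumours, and cytokines such as interleukin 1 beta are part of the acute response to DSS.

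The array carried 145548 non-control probes of 60 bases, 51691 from the manufacturer's catalogue (names that begin with A) and 93857 custom probes (names that begin with CUST). The brightness of each probe is given as a level: the log2 of the processed signal minus the 75th percentile of its array, so that 0 is a bright probe and the lowest levels well above background lay between -5.55 and -4.93. Of these probes, 53530 (36.8%) were well above background on at least 3 of the 6 arrays and were tested with limma. Between 52898 and 54845 probes were well above background on the untreated arrays and between 48437 and 52391 on the 2-week arrays, and no probe was saturated. Pearson's r of the levels was 0.977 to 0.982 between untreated arrays, 0.979 to 0.982 between 2-week arrays and 0.942 to 0.966 between arrays of different groups, over the same probes. The 3 arrays at 2 weeks were on 1 slide and the untreated arrays on 2 others, so slide and treatment cannot be told apart. The files pair no probe with a gene. Probes are therefore described by name and sequence, and by gene where their bases matched a RefSeq promoter window.

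Among probes well above background on at least 2 of 3 arrays of both groups, the 6 with the largest rise and the 6 with the largest fall are described first. Probes detected in 1 group only, some with larger fitted changes, follow later. Their sequences are shown because no gene name comes with them, 5′ to 3′ as deposited, with no part marked. The 6 rises are the following.
A_66_P106131: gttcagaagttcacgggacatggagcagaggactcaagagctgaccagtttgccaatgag
A_52_P95161: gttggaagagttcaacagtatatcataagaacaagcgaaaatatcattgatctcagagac
A_51_P354126: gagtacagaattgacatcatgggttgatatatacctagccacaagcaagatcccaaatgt
A_52_P57843: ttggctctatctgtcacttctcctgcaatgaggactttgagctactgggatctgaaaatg
A_51_P510156: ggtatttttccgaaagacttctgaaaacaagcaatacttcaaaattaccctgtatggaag
A_51_P159453: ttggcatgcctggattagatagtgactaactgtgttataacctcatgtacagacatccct

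The 6 falls, in order of size, are the following.
A_66_P109060: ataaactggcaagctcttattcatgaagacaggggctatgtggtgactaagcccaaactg
A_55_P2092633: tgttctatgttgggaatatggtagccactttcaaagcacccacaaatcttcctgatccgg
A_55_P2057189: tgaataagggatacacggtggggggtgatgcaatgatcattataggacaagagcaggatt
A_66_P134474: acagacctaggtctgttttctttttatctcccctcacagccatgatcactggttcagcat
A_52_P98778: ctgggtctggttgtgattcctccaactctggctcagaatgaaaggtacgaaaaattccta
A_55_P2716491: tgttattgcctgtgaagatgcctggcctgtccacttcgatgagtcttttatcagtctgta

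Every one of these 12 is a catalogue probe, and none shares a run of 25 bases with another catalogue or custom probe. Each was called (adjusted p below 0.05 in limma, Benjamini-Hochberg over the tested probes) with the processed signal and with the deposited log2 values. Both calls, and groups that do not overlap, were conditions of the choice, which then went by the size of the change. The values of these probes therefore describe only how far the extremes reached.

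Among all tested probes, 6099 (11.4%) were called, 2564 higher at 2 weeks (4.79%) and 3535 lower (6.6%). Of the calls, 3013 were at least 2-fold, 1220 higher and 1793 lower (5.63%, 2.28% and 3.35% of the tested probes). At an unadjusted p below 0.05 there were 15496 (28.9%). The groups did not overlap for 19900 probes (37.2%), with all treated arrays above in 8458 (15.8%) and below in 11442 (21.4%). After normexp background correction 625 calls were at least 2-fold, against the 3013 here. That setting added an offset of 50 to the signal and was followed by quantile normalization. An added offset by itself makes the log2 changes of dim probes smaller, so smaller changes after normexp are partly built in. With the deposited values 5255 probes (9.82%) were called, 2546 higher (4.76%) and 2709 lower (5.06%). In both value sets 5072 (9.48%) were called in the same direction, 2377 higher (4.44%) and 2695 lower (5.03%). The share of calls that were higher was 42% with the main scaling, 48.4% with the deposited values and 53.3% after cyclic loess (3125 higher and 2737 lower), so which direction held more calls depended on the scaling. The median change over tested probes was -0.05 with the main scaling and -0.01 with the deposited values. Leaving out untreated replicate 1 reduced the count of calls to 2377, and leaving out untreated replicate 2 to 2543. Leaving out treated replicate 1 or treated replicate 3 reduced it to 2629 or 2367. The calls shared by the full fit and all 6 fits that left out 1 array were 942 higher and 823 lower.

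**Figure D1:**
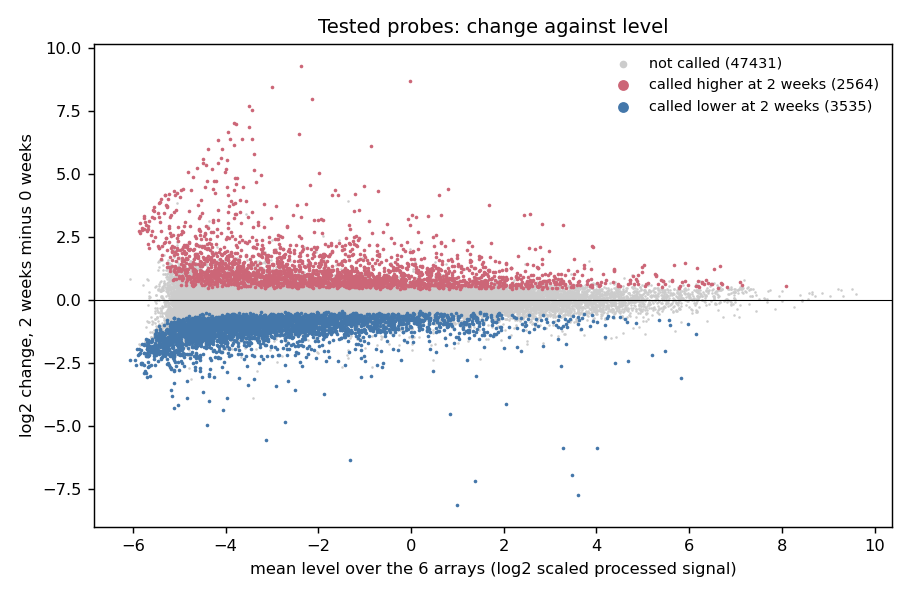
Log2 change at 2 weeks against 0 weeks (vertical axis) by mean level over the 6 arrays (horizontal axis) for the 53530 tested probes, 1 point a probe. Of the 2564 probes called higher and 3535 called lower, many of the largest changes at low levels belong to probes detected in 1 group only, while the 6 largest falls named in the text stand apart at mean levels of about 1 to 4.

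Probe A_66_P106131 gave the largest rise among probes detected in both groups. Its level was -3.98, -4.76 and -4.42 on the untreated arrays and 4.53, 4.13 and 4.33 on the 2-week arrays. All 3 treated arrays thus lay far above all untreated arrays, with little spread (SD 0.39 and 0.20). The change was 8.72 (SE 0.30), or 421-fold, with an adjusted p of 1.56e-07 in limma, and 6.68 after normexp. It was well above background on 2 of the 3 untreated arrays. On the arrays of mice given AOM alone its level was -3.29, -3.44 and -2.56, and at 10 weeks 1.96, 2.95 and 2.32. It was thus highest at 2 weeks.

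Probe A_52_P95161 was at -4.15, -4.00 and -3.64 without treatment and at 2.65, 1.33 and 2.62 at 2 weeks. The change was 6.13 (SE 0.38; limma adjusted p = 9.12e-06), a 70.0-fold difference. On the arrays 1 week after AOM it already stood at 1.46, 0.58 and 1.51, a range that overlaps that at 2 weeks. Probe A_51_P354126 was at -3.78, -4.98 and -4.79 without treatment and at -0.37, 0.40 and 1.63 at 2 weeks, the widest spread among the 6 rises. Its change was 5.07 (SE 0.90; limma adjusted p = 0.00596). Both probes were higher still at 10 weeks, with means of 3.52 and 2.94.

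Probe A_52_P57843 was at -4.19, -4.45 and -4.81 without treatment and at 0.19, -0.25 and 0.38 at 2 weeks, a change of 4.59 (SE 0.27; limma adjusted p = 8.86e-06). It stayed at -4.39, -4.22 and -4.24 on the arrays 1 week after AOM and was lower at 10 weeks (mean -1.65) than at 2 weeks. Probe A_51_P510156 went from -3.40, -3.17 and -3.28 to 1.55, 0.92 and 1.32, a change of 4.55 (SE 0.31; limma adjusted p = 1.71e-05). Probe A_51_P159453, the brightest of the 6 without treatment, went from -1.86, -1.06 and -1.31 to 3.26, 2.33 and 3.39, a change of 4.40 (SE 0.30; limma adjusted p = 1.70e-05). It stood between the groups at 1 week (0.61, 0.82 and 0.53) and was back at 0.40, 0.45 and 1.04 at 10 weeks. The 6 rises therefore differ in the level reached before DSS: the 1-week arrays of A_66_P106131, A_52_P95161 and A_51_P159453 all lay above every untreated array, and those of A_52_P57843 lay among the untreated ones. After normexp the rises were smaller, from 2.56 for A_52_P57843 to 6.68 for A_66_P106131.

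The 6 largest falls began from bright levels. Probe A_66_P109060 was at 4.70, 5.29 and 5.13 without treatment and at -5.01, -0.36 and -3.85 at 2 weeks. The change was -8.11 (SE 0.91; limma adjusted p = 0.000431), or 277-fold lower, and the probe was well above background on 2 of the 3 treated arrays. The change was -7.15 without 2-week replicate 1, -9.47 without 2-week replicate 2 and -6.53 after normexp. The groups do not overlap, but the 2-week arrays spread widely (SD 2.42), with replicate 2 highest. Probes A_55_P2092633 and A_55_P2057189 had the same order of arrays. Their levels at 2 weeks were -1.69, 2.15 and -1.22 for the first and -3.31, -0.24 and -3.10 for the second, and their changes were -7.72 (SE 0.74) and -7.18 (SE 0.62). Without 2-week replicate 2 these changes were -8.92 and -8.16, and without 2-week replicate 1 that of A_55_P2092633 was -7.00. In all 3 probes replicate 2 at 2 weeks kept over 2 log2 units more signal than its neighbours.

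A second pattern held in the other falls, where replicate 3 and not replicate 2 was the highest 2-week array. Probe A_66_P134474 was at 6.19, 7.57 and 7.02 without treatment and at -1.71, -0.52 and 2.25 at 2 weeks, a change of -6.92 (SE 0.76; limma adjusted p = 0.00038). Probe A_52_P98778 was at 5.38, 6.91 and 6.34 without treatment and at -0.77, -0.25 and 2.03 at 2 weeks, a change of -5.87 (SE 0.62; limma adjusted p = 0.00027). Probe A_55_P2716491 was at 6.12, 7.50 and 7.18 without treatment and at 0.20, 0.48 and 2.57 at 2 weeks, a change of -5.86 (SE 0.55; limma adjusted p = 0.000115). Without 2-week replicate 3 these 3 changes were -8.04, -6.72 and -6.60, and without 2-week replicate 1 that of A_66_P134474 was -6.06. Untreated replicate 1 was the lowest untreated array in all 6 falls. At 1 week after AOM the levels of all 6 overlapped those without treatment, with means of 5.18 to 7.61. At 10 weeks the means of the first 3 were -1.72, -0.05 and -2.06, near those at 2 weeks, while those of the last 3 were 3.44, 3.48 and 3.74, between the levels at 2 weeks and without treatment.

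**Figure D2:**
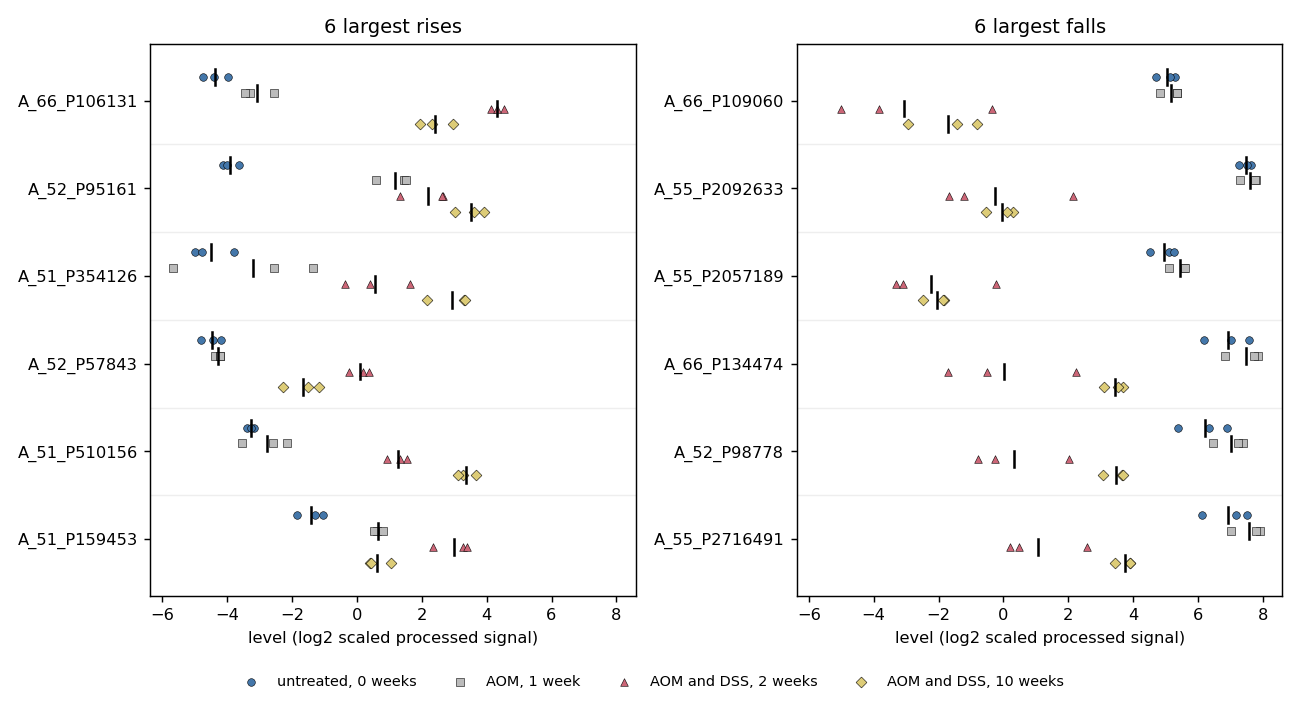
Level on each array (horizontal axis, log2 scaled processed signal) of the 6 probes with the largest rise (left) and the 6 with the largest fall (right), with 3 arrays a group and a bar at the group mean. By the rule that chose these probes, the triangles (2 weeks) and circles (0 weeks) do not overlap in any of them. The falls show 1 treated array well to the right of the others.

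The same measure over larger sets shows how far these extremes are typical. By the rule that named these probes, 3865 of the 53530 tested probes qualified (1974 higher and 1891 lower). Of them, 39 rose at least 8-fold, 38 from the catalogue, and 15 fell at least 8-fold, 13 from the catalogue. Among all calls, which include probes detected in 1 group only, 146 rises and 36 falls were at least 8-fold. Of the 39 rises, 18 were already more than 1 log2 unit above the untreated mean at 1 week, with a median difference of 0.81 there. Of the 15 falls, 3 were more than 1 unit below it at 1 week. These 1-week differences use the same untreated arrays, and the share of all tested probes with such a difference was not counted.

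The 2-week arrays did not contribute equally to the calls. Replicate 2 was the highest 2-week array for 2378 of the 3535 called falls (67.3%) and for 39.1% of all tested probes. It was the lowest 2-week array for 50.7% of the called rises and for 27.8% of all tested probes. The median difference from the untreated mean over the called falls was -0.74 on replicate 2 and -1.12 and -1.11 on the other two, and over the called rises 0.90 against 1.01 and 1.02. Replicate 2 thus lay nearer to the untreated level in both directions. The median SD of the called falls was 0.33 at 2 weeks and 0.19 without treatment, whereas that of the called rises was 0.21 in both groups. Without 2-week replicate 2, 4108 probes were called lower and 2272 higher.

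**Figure D3:**
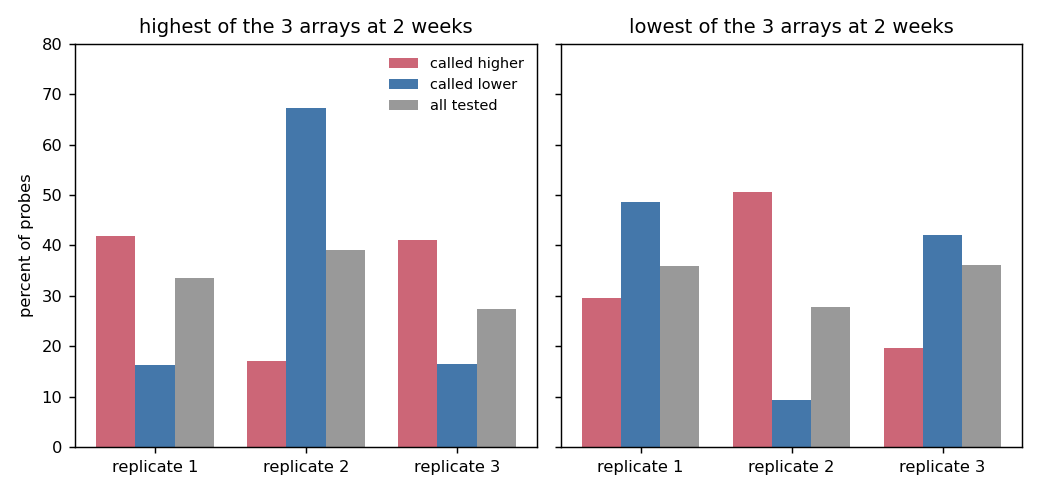
Percent of probes (vertical axis, from 0) for which each 2-week array was the highest (left) or the lowest (right) of the 3, for probes called higher, called lower and all tested. Replicate 2 is the highest array for 67.3% of the called falls and the lowest for 50.7% of the called rises.

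Some probes were detected in 1 group only, so that their fold is given as an approximate lower bound. These bounds set the mean of the bright group against the lowest level well above background on each array of the dim group. The probe's own level was used if higher. Some probes above that lowest level were still not well above background, so a true bound can be smaller. The untreated arrays had more probes well above background in general (52898 to 54845, against 48437 to 52391 at 2 weeks). Its part in the counts that follow was not tested. Of all probes, 351 (0.241%) were well above background on the 3 arrays at 2 weeks and on no untreated array. In the other direction there were 1216 (0.835%). Such probes passed the filter only through the group where they are bright, so their direction was fixed by it, and the adjusted p given for them comes from the limma fit of all 145548 probes without a filter. The following are shown because they were detected in 1 group and not in the other. The first 3 are the brightest of those detected at 2 weeks only. The last was detected at 0 weeks only and was the most even across the untreated arrays among the 5 brightest of that kind. Capitals in it mark AATAAA, the letters of the common polyadenylation signal.
A_55_P2006296: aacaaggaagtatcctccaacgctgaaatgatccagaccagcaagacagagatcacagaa
A_52_P430886: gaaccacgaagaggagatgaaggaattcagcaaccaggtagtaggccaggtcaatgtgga
A_55_P1998471: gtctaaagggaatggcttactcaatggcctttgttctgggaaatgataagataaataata
A_55_P2047330: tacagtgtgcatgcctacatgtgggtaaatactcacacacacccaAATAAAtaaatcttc

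Probe A_55_P2006296 was at 2.04, 2.62 and 2.15 at 2 weeks, at least 188-fold above the untreated arrays, where it was not well above background (limma adjusted p = 0.00074). Probe A_52_P430886 was at 1.55, 2.29 and 1.75, at least 141-fold higher (limma adjusted p = 0.00252). Probe A_55_P1998471 was at 1.65, 1.1 and 0.96, at least 91.8-fold higher (limma adjusted p = 6.23e-05). The first pair shared the order of the 2-week arrays, with replicate 2 highest, the reverse of the general lean of that array. At 10 weeks both were uneven, at -2.78, -1.74 and 1.45 for A_55_P2006296 and at -2.88, -2.61 and 1.00 for A_52_P430886, with replicate 3 high in each. Whether probes of like pattern, here or among the falls above, measure the same RNA was not tested, so they may not be separate observations. The other probes of this kind, A_51_P303160 and A_51_P428372, were at least 72.0-fold and 50.1-fold higher.

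The probes detected at 0 weeks only were dimmer. The brightest, A_55_P2727439, was at -3.0, 0.34 and -3.08 without treatment and at least 9.64-fold lower at 2 weeks. It was brightest on untreated replicate 2 and lost its call without that array. It also lost it without 2-week replicate 1, without 2-week replicate 3 and after normexp. Probe A_51_P314669 was at -3.70, -0.50 and -1.90, at least 8.85-fold lower at 2 weeks. It lost its call without untreated replicate 2, without 2-week replicate 1 and after normexp. In the fit without a filter neither of these passed the threshold (limma adjusted p = 0.075 and 0.0584). Probe A_55_P2047330 was even across the untreated arrays (-2.43, -2.33 and -2.30) and at least 7.06-fold lower at 2 weeks (limma adjusted p = 0.0115). It kept its call under all 16 alternatives that tested it. Except for the fit without a filter, these reused the filter that fixed its direction, so they add little. For A_52_P669922 and the custom probe CUST_OEV3_041726 the bounds were 5.69-fold and 4.98-fold lower.

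Named genes came from sequence. Each probe was matched, over at least 25 bases, to the RefSeq promoter windows of the GRCm38.p6 build, which run from 250 bases before to 50 bases after a gene's start. A probe was paired with a gene where it began in the first bases of a transcript or lay inside the span of 1 gene on the same strand. This paired 395 probes with 383 genes, and 171 of these probes, for 166 genes, were tested. Of the 171, 14 were called, 6 higher and 8 lower (8.19%, against 11.4% of all tested probes), with a median change of -0.07. Among the 118 probes of protein-coding genes 7 were called, and among the 53 of long non-coding RNA genes 7. The table used holds gene spans without exons, so whether a probe lies in an exon or an intron is not known here, and matches elsewhere in the genome were not searched. Of the 14, the sequences below belong to the paired genes described first, and capitals mark the bases that matched the window.
Il1b (A_55_P2720183): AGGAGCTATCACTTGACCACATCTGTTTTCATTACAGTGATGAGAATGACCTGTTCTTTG
C1qtnf3 (A_51_P425071): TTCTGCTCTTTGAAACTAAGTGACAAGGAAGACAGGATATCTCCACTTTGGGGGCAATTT
9330158H04Rik (CUST_OEV3_055948): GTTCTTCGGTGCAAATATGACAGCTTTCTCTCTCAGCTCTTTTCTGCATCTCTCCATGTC
Trak1 (A_52_P61009): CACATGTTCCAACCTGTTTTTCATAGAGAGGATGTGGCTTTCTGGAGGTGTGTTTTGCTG
Cdh6 (A_55_P2768961): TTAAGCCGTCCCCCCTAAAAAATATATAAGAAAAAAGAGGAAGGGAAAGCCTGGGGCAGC
Srgn (A_55_P2715610): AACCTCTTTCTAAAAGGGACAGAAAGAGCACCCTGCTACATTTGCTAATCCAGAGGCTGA

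Il1b encodes interleukin 1 beta, a cytokine that activated macrophages and neutrophils release and that drives fever and recruits leukocytes. Its probe, A_55_P2720183, matched chr2:129369729-129369788 on the minus strand, inside the Il1b span (chr2:129364569-129371164). The level was -7.20, -7.39 and -7.33 on the untreated arrays, none well above background, and -4.42, -2.58 and -4.28 on the 2-week arrays, all well above background. All treated arrays lay above all untreated arrays, and replicate 2 was the highest. By the approximate bound described above, the probe was at least 2.88-fold higher at 2 weeks. The fitted change was 3.55 (SE 0.41) with the processed signal, 3.82 with the deposited values and 0.72 after normexp, and its size depends on how values below detection are treated. It was not well above background 1 week after AOM (-7.57, -7.26 and -7.27) and was brighter at 10 weeks (-2.32, -1.95 and -3.02). In bulk tissue, more cells of a type and more RNA per cell cannot be told apart. The probe passed the filter only through the 2-week arrays. In the fit of all probes without a filter its limma adjusted p was 0.00405.

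The other rises among paired genes were below 2-fold. The probe in Cdh6, which encodes a cadherin, a calcium-dependent cell adhesion protein, matched chr15:13173826-13173885. It was at 0.12, -0.02 and 0.14 without treatment and at 1.17, 0.97 and 0.87 at 2 weeks, a change of 0.93 (SE 0.20; limma adjusted p = 0.0165). It already stood at 1.04, 0.36 and 0.93 at 1 week. Srgn encodes serglycin, the proteoglycan of secretory granules in blood cells, and its probe (chr10:62507735-62507794) was at -4.36, -4.06 and -4.06 without treatment and at -3.61, -3.33 and -3.04 at 2 weeks. The change was 0.83 (SE 0.23; limma adjusted p = 0.0369), and with the deposited values it missed the threshold (limma adjusted p = 0.0505). The long non-coding RNA genes also rose: Gm16364 by 0.94, Gm2721 by 0.90 and D730005E14Rik by 0.69, all from levels below -3. The groups did not overlap in any of them, as in 37.2% of all tested probes. After normexp the rises of Gm16364, Gm2721, Srgn and D730005E14Rik were 0.25, 0.28, 0.34 and 0.29.

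C1qtnf3, which encodes a secreted protein of the C1q and tumour necrosis factor related family, fell furthest among paired genes. Its probe matched chr15:10978653-10978712 and was at -1.80, -1.78 and -1.66 without treatment, at -1.64, -1.89 and -1.97 at 1 week and at -3.72, -2.55 and -3.15 at 2 weeks. The untreated and 1-week arrays overlapped, and every 2-week array was lower. The change was -1.40 (SE 0.27; limma adjusted p = 0.00938), and -0.81 after normexp. At 10 weeks the mean was -3.66.

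The long non-coding RNA gene 9330158H04Rik lies opposite the start of Chrm2, the muscarinic receptor M2. Probes CUST_OEV3_055948 and CUST_OEV3_055949 hold the identical 60 bases (chr6:36387837-36387896) and count as 1 measurement made again. They changed by -1.17 (SE 0.18; limma adjusted p = 0.00333) and -1.04 (SE 0.20; limma adjusted p = 0.0102). The first was at -1.10, -1.30 and -1.20 without treatment and at -2.44, -2.14 and -2.51 at 2 weeks, and the second at -1.22, -1.33 and -1.20 and at -2.44, -2.03 and -2.38. Both copies thus separate the groups on every array.

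Trak1 encodes an adaptor that links mitochondria to kinesin motors. Its probe (chr9:121455058-121455117) was at -0.41, -0.61 and -0.64 without treatment and at -1.80, -1.07 and -1.70 at 2 weeks, a change of -0.97 (SE 0.22; limma adjusted p = 0.0183). Pdzd7, which encodes a scaffold protein of sensory hair cells, changed by -0.75 (SE 0.17; limma adjusted p = 0.0206), and its 1-week arrays (-2.16, -2.44 and -2.45) already lay at the 2-week level (-2.49, -2.25 and -2.55). The remaining falls were 0610005C13Rik at -0.99, Gm39644 at -0.74 and 4931406C07Rik at -0.51. The last of these lost its call without any 1 of the 6 arrays. Of the 14 probes, CUST_OEV3_055948 kept its call under every alternative, as did Il1b, with the limit on its filter given above, and C1qtnf3 and CUST_OEV3_055949 under all but the replicate block. Each of the others lost it in at least 2 of the fits that left out 1 array. Il1b, Gm16364, Srgn, 4931406C07Rik and Gm39644 fall outside the rule for named genes and were named after their values were seen.

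**Figure D4:**
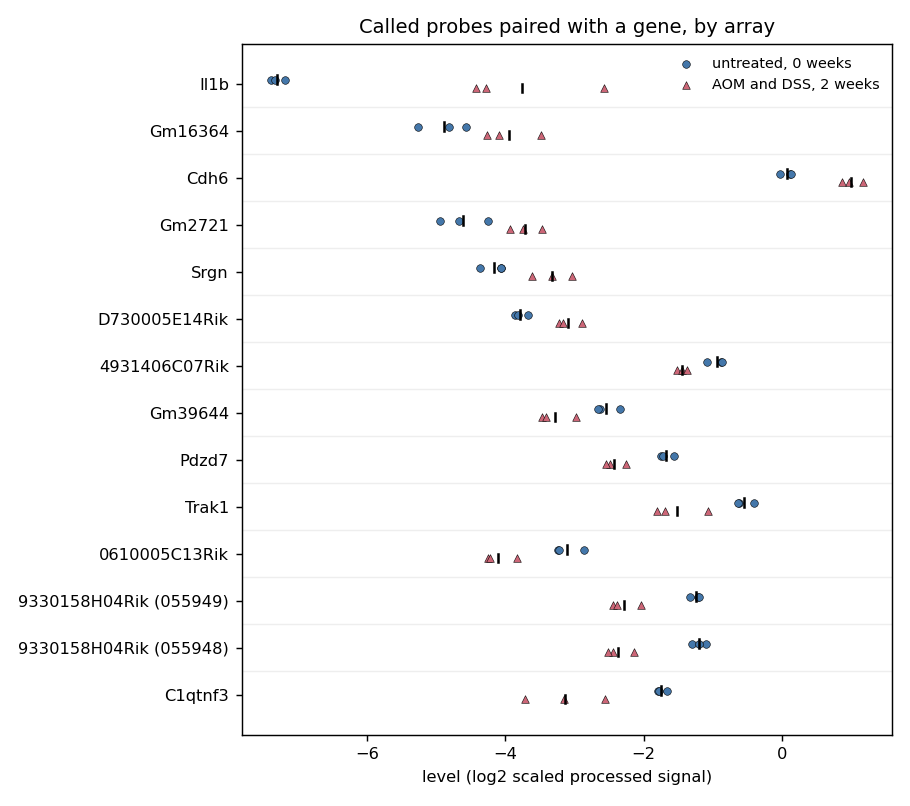
Level on each array (horizontal axis, log2 scaled processed signal) of the 14 called probes paired with a gene, with 3 arrays a group and a bar at the group mean. The groups do not overlap in any row, Il1b has the widest gap, and the 2 rows of 9330158H04Rik are probes of identical sequence.

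The other 157 tested probes paired with a gene did not pass the threshold, and their changes ran from -1.40 to 0.93. Of 610 genes in 13 gene lists and 24 marker lists of cell types, 6 were paired and 5 tested. In the list of acute inflammation and neutrophil recruitment, 1 of 37 genes was tested, Il1b, the probe that passed the filter only through the 2-week arrays. Hbb-bs, a red blood cell haemoglobin chain, changed by 0.17 (limma adjusted p = 0.80), a value that is uncertain because near-identical globin genes exist. Uchl1, a marker of enteric neurons, changed by 0.92 (limma adjusted p = 0.24). The long non-coding RNAs Meg3 and Dleu2 changed by -0.76 and -0.10 (limma adjusted p = 0.15 and 0.88). Gadd45a, a p53 target, was paired and was too dim to test. The labelled tissue could not be checked against markers of colonocytes, goblet cells or immune cells, since none of these was paired.

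A further 21 called probes matched a window without being paired. Their position is known over the matched bases, shown in capitals for the pair described here.
A_51_P131561: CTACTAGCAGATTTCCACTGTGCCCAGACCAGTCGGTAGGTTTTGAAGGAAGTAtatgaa
A_55_P2094474: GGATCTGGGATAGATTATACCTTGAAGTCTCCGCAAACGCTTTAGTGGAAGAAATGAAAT

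Of the bases of A_51_P131561, 54 matched chr9:50505002-50505055 on the plus strand, opposite the long non-coding RNA gene Plet1os and inside the span of Plet1 (chr9:50494525-50505639), which encodes a surface protein of epithelial cells. It rose by 2.14 (SE 0.46; limma adjusted p = 0.0142), with means of -0.33 without treatment and 1.81 at 2 weeks, and lost its call without 0-week replicate 1, without 2-week replicate 3 and with no filter. A_55_P2844759 rose as far, by 2.13 (SE 0.27; limma adjusted p = 0.00084), and kept its call under all 17 alternatives, but its bases matched 2 places. The other bases of A_51_P131561 lie outside the window, so A_51_P131561 was not paired with Plet1. A_55_P2094474 matched chr2:45113216-45113275 on the plus strand, opposite the start of Zeb2, which encodes a zinc finger repressor of epithelial genes, and outside gene spans on its strand. It rose by 1.22 (limma adjusted p = 0.0252) and by 0.30 after normexp. It was well above background on 1 of 3 untreated arrays and lost its call in 7 of 16 alternatives, 4 of them fits that left out 1 array. A_55_P2158314, antisense to the start of the heat shock gene Hspa1a over 47 bases, fell by 1.23 (limma adjusted p = 0.0368). It was well above background on 1 of 3 arrays at 2 weeks, missed the threshold with the deposited values (limma adjusted p = 0.0505) and kept its call in 7 of 16 alternatives. CUST_OEV3_000127, opposite the start of Speer4c, fell by 1.47 (limma adjusted p = 0.00371) and kept its call under all 17 alternatives.

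Catalogue and custom probes changed in different proportions. Of the 30395 catalogue probes tested, 2011 were called higher and 1719 lower (12.3% in all). Of 20853 custom probes tested, without a block described next, 488 were called higher and 1764 lower (10.8%). The tested probes were divided by level into 3 sets of equal size. In the brightest set, of 13072 catalogue probes 6.42% were called higher and 3.2% lower, and of 4375 custom probes 3.7% and 4.57%. In the dimmest set, of 7353 catalogue probes 6.81% were called higher and 9.64% lower, and of 9405 custom probes 2.08% and 10.1%. In the middle set, of 9970 catalogue probes 6.73% were called higher and 5.94% lower, and of 7073 custom probes 1.84% and 8.71%. The shares of falls were thus closest in the dimmest set, and custom probes had the larger share of falls in all sets. Catalogue probes had the larger share of rises in all sets. These shares were not tested. In a block of 15000 custom probes the sequences appear to be listed from the other end. Of these, 74 matched a promoter window over 30 bases when read from the last base to the first, none did so as written, and 117 of 2282 tested (5.13%) were called. Their calls are not attributed to any RNA.

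Probes of identical sequence on the same arrays give a measure of error between spots only. Error between arrays, slides or samples is common to both probes of a pair and does not enter it. Over 318 tested pairs of identical sequence, the median absolute difference between the 2 changes was 0.20 on the log2 scale, and the 90th percentile 0.64. Either probe was called in 40 pairs, both in the same direction in 15 and in opposite directions in none. Over 1741 tested pairs that share at least 25 bases, the changes correlated at r = 0.71 across pairs, which share their arrays and part of their sequence. Precision depended on brightness: the median standard error of a change was 0.28 in the dimmest of these 3 sets and 0.18 in the brightest, and the called changes had a median size of 1.22 and 0.81.

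The hexamer AATAAA, searched as written, was present in 7.64% of probes called higher, 4.7% of those called lower, 7.01% of tested probes and 6.03% of all probes of the array. Its reverse complement TTTATT was present in 2.57%, 3.9%, 3.3% and 3.13% of the same sets. Among catalogue probes alone the shares with AATAAA were 8.9% of those higher, 6.75% of those lower and 9.46% of those tested. These shares were not tested.

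The mouse control probes PGK1_5, PGK1_3, GAPDH_5 and GAPDH_3, which target a glycolytic enzyme each, changed by 0.82, 0.49, 0.45 and 0.14. All 2-week arrays lay above all untreated arrays in the first 3 (exact 2-sided permutation test, p = 0.1, the smallest that 3 arrays against 3 allow). In GAPDH_3 the groups overlapped (exact permutation p = 0.3). Among 68 control probes, 9 had all 2-week arrays above all untreated arrays and 3 had all below. Among all tested probes the shares were 15.8% above and 21.4% below. For each enzyme the first-named probe rose more than the second, and the cause was not tested.

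**Figure D5:**
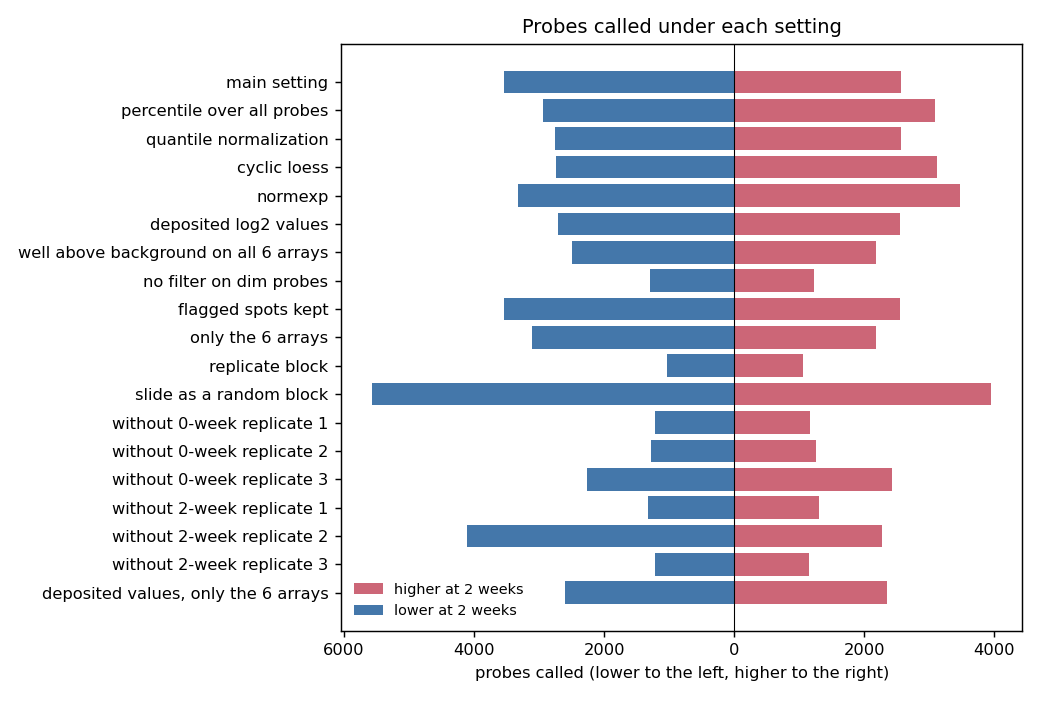
Number of probes called lower (left of 0) and higher (right of 0) at 2 weeks under the main setting and each alternative, 1 pair of bars a setting. The main setting called 3535 lower and 2564 higher, and leaving out 0-week replicate 1 or 2, or 2-week replicate 1 or 3, gave between 1148 and 1330 in each direction.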

How the data were processed

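Total RNA of mouse colorectal tissue was labelled with Cy3 and hybridised to 1-colour Agilent arrays, 1 sample an array. Intensity values are the deposited processed signals, already background-corrected by Agilent Feature Extraction 10.7.1.1, per the submitters' processing notes and the file headers. Per the file headers, each spot also has flags for detection and outliers. The authors' deposited log2 values correlated with the log2 processed signal at r = 0.995 to 0.9997 on the 6 arrays and have the same median (2.92) on each; how they were normalized is not given in the sources used here. Annotation was not used from the files, which give the header build field mm9 and no gene names; positions are GRCm38.p6, from RefSeq.

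Flagged spots were dropped, spots of a probe averaged and each array scaled to its 75th percentile over 42343 probes well above background on all 12 arrays. Group means were fitted with limma 3.58.1 (R 4.3.3) to all 12 arrays, with Benjamini-Hochberg adjustment over 53530 probes, called below 0.05; the procedure was tested on simulated data. The number of arrays limits the precision. Counts and matching used Python 3.11 code. Named probes were the 6 largest rises and falls called in both value sets, without overlap and well above background on at least 2 of 3 arrays of each group; the promoter matching was added after the files were seen, in place of transcripts or proteins. Comparisons, lists and named probes were chosen with earlier results of these data known. Same-numbered arrays deviated together at r = -0.08, -0.03 and 0.13, so no pairing by number was seen. With 3 arrays a group this cannot exclude a pairing. Alternatives changed the scaling, the background correction, the filter, the flagged spots, the arrays fitted and the block, or left out each array. All 12 deposited columns were mapped to samples.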

Additional observations from a re-analysis of the deposited data

How the results depend on the processing

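Against 6099 probes called, 2518 were called with no filter on dim probes (1229 higher and 1289 lower) and 9527 with the slide as a random block (3958 higher and 5569 lower), where the estimated correlation within slides was -0.09. With the replicate number as a block over the 6 arrays, 2086 probes were called, 1055 higher and 1031 lower, and 1859 of them were called in the same direction without it; the numbers carry no pairing. Leaving out each array gave 2367 to 6380 calls, 1148 to 2433 higher and 1214 to 4108 lower. The cause of these differences was not tested. The other scalings, the flagged spots, the stricter filter, the 6 arrays alone and, added after seeing the data, the deposited values with only the 6 arrays kept each count within 1.5 times of the main one. Calls made by all 6 scalings numbered 2055 higher and 1890 lower. Normexp called 3475 higher and 3324 lower, of which 625 were at least 2-fold. With the looser detection flag, 432 probes (0.297% of all) were seen at 2 weeks only and 1363 (0.936%) at 0 weeks only. The 12 named probes were called in the same direction in all 213 alternative fits. The probes paired with a gene kept direction and call in 176 of 250 and lost the call in 74, with no sign change. Without scaling, added after seeing the data, the 4 control probes kept their direction. The size of changes of probes near background is the least certain. Normexp, whose offset makes such changes smaller, took Il1b from 3.55 to 0.72.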
